A study of Mus musculus with 32 samples.

Results

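The genes described here are 8 mouse genes of haematopoietic stem and progenitor cells: Hoxa5, Hoxa7, Hoxa9, Hoxa10, Meis1, Cd34, Mn1 and Lmo2. They were taken as a list of symbols, and every probe set assigned to a single gene of the list was used, whatever its values. This gave 13 of the 34958 single-gene probe sets, or 8 of 18194 genes, on Affymetrix 3' expression arrays. Meis1 had 3 probe sets, Hoxa5, Hoxa9 and Hoxa10 had 2 each, and Hoxa7, Cd34, Mn1 and Lmo2 had 1 each.

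The series held 32 arrays from 3 experiments built around Ebf1, a transcription factor that early B-cell development requires. In the first, the 230238 pre-B cell line carried either Ebf1-Engrailed, in which Ebf1 is joined to a repressor domain, or the empty pMIG retroviral vector, and 500000 GFP-sorted cells were used per sample (3 samples each). In the second, Ebf1-/- cells of C57BL/6J fetal liver, taken at E14.5 and expanded on OP9 stromal cells with Kit ligand, Flt3 ligand and interleukin-7, carried Ebf1-ER from the same type of vector. Ebf1-ER is a form of Ebf1 that 4-hydroxytamoxifen (4-OHT) activates. These cells were measured at 0, 6, 12 and 24 h with 0.1 uM 4-OHT (2 samples each). In the third, cells of enlarged lymph nodes from 8 Ebf1+/-Pax5+/- C57BL/6J mice of about 30 weeks were compared with pro-B cells of wild-type C57BL/6J mice, with 1000000 cells per sample. Each lymph node was measured on 2 arrays, and wild-type pro-B cells on 2.

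Several features of the groups limit what the values can show. The pre-B line is a single line. All arrays of the Ebf1-ER course lacked endogenous Ebf1 and carried the vector, and no array had 4-OHT without Ebf1-ER, so the effects of Ebf1-ER, of the agent and of time cannot be told apart. Lymph-node cells were frozen, thawed and sorted as live cells, with no lineage sort stated, whereas the wild-type cells were sorted as pro-B cells, so tissue, freezing and genotype cannot be told apart. In RNA of bulk samples, fewer cells of a type and less RNA per cell cannot be told apart. The numbers in the lymph-node titles were read as 1 mouse each. For the other groups it is not stated whether samples came from separate cultures or animals, so p-values there cover only the scatter of these samples, possibly a technical one.

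HoxA homeodomain factors are transcription factors that are active in haematopoietic stem and progenitor cells and are shut down as cells mature. They bind DNA together with partners of the TALE homeodomain class, among them Meis1 and the Pbx proteins, and Hoxa9 with Meis1 is a well-known driver of acute myeloid leukaemia and of leukaemias with MLL (Kmt2a) fusions. Cd34 is a surface sialomucin of progenitor cells, Mn1 is a transcriptional coregulator that is leukaemogenic in mice, and Lmo2 is a LIM-domain adaptor that joins Tal1, Ldb1 and Gata factors and is an oncogene of T-cell leukaemia. Ebf1 and Pax5 direct progenitors into the B lineage and help to silence genes of other lineages.

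The 4 Hoxa genes lie in 1 cluster on chromosome 6 (GRCm38.p6): Hoxa5 at chr6:52201754-52204587, Hoxa7 at chr6:52215623-52218573, Hoxa9 at chr6:52223097-52227370 and Hoxa10 at chr6:52231197-52240854. Meis1 lies at chr11:18880428-19019651, Cd34 at chr1:194938821-194961292, Mn1 at chr5:111417300-111457030 and Lmo2 at chr2:103957903-103981878. The RefSeq promoter table for GRCm38.p6 held 7 promoters of 6 of the 8 genes, and Mn1 and Lmo2 were not among them. The 250 bases before the gene start are printed 5′ to 3′ for the 3 neighbouring Hoxa genes that were lower in the lymph nodes, and for Cd34, which changed in 2 of the 3 experiments. Capitals mark the match to the core of the Ebf1 motif.
Hoxa5, chr6:52204588-52204837, strand -: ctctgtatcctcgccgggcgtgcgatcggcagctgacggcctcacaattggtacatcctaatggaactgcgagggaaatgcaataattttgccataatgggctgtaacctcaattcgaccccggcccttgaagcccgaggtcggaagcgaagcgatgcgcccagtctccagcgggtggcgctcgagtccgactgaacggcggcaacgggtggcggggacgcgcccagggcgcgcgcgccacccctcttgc
Hoxa7, chr6:52218574-52218823, strand -: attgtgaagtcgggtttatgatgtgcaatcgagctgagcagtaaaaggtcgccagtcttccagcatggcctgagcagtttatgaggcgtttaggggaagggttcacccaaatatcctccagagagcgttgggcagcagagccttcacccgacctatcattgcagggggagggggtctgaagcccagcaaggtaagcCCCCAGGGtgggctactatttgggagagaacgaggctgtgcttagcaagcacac
Hoxa9, chr6:52227371-52227620, strand -: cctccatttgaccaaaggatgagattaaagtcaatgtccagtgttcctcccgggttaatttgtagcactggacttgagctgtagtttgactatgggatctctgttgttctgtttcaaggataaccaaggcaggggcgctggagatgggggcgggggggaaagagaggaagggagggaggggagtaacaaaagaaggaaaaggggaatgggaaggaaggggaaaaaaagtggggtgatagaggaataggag
Cd34, chr1:194938571-194938820, strand +: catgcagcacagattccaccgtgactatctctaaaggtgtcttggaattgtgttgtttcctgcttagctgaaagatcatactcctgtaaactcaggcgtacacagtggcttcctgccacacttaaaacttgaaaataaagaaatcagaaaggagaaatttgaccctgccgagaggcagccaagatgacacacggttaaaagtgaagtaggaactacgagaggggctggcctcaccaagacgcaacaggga

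The 7 promoters, taken with 250 bases before and 50 after the start, were searched on both strands. The core of the Ebf1 motif, CCCNNGGG, was in 1 of the 7 and in 13.7% of the 32851 promoters of the table. The full Ebf1 palindrome, which is this core with T before it and A after it, was in 0 of the 7 and in 0.904% of all promoters. The match was CCCCAGGG in the promoter of Hoxa7, starting 54 bases before the gene start. The Meis1 motif TGACAG (19.2% of all promoters) and the Pbx-Hox motif TGATNNAT (8.85%) were in 0 of the 7. A match says that these letters are present, and no binding was measured.

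All values are deposited log2 values set relative to a reference level of each probe set. In the line and in the course every probe set had a median of 0, so that 0 is there a middle value and not low expression. In the lymph-node experiment 24.0% of all probe sets had a median of 0, and the 13 probe sets of the members had medians between 0 and 0.0608 over its 18 arrays. Levels of 2 genes or of 2 experiments cannot be set side by side on this scale. Array medians lay between -0.0139 and 0.0495. The 0 h arrays of the Ebf1-ER course stood apart from the 6 later ones on the first principal component, which held 68.5% of the variance. Ebf1 itself was read by 5 probe sets that did not move together in the lymph nodes: the most variable was higher than in wild-type cells (4.48 ± 0.18) and the other 4 were lower. A probe set was called at a Benjamini-Hochberg adjusted p of limma under 0.05 over all 34958 probe sets, and errors after ± are limma's standard errors.

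In the comparison of the lymph nodes with wild-type pro-B cells, Hoxa9, Cd34, Meis1, Hoxa5 and Hoxa7 were lower in the lymph nodes. Of the 13 probe sets 7 were called, all lower, against 17.4% of all probe sets called and 7.53% called lower. For 8 of the 13 the groups did not overlap, all with the lymph nodes lower, against 26.7% of all probe sets without overlap and 11.8% with the lymph nodes all lower. The median log2 change of the 13 was -0.38, beside 0.016 over all probe sets. Hoxa10, Mn1 and Lmo2 had no called probe set.

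Hoxa9 and Cd34 had the largest differences, and their order depended on 1 wild-type sample: without wild-type sample 1 Hoxa9 1455626_at was at -3.03 and Cd34 at -3.24. Hoxa9 probe set 1455626_at read 3.09 and 3.05 in the 2 wild-type samples and between -0.09 and 0.14, with a median of 0.05, in the 8 lymph nodes. Every lymph node lay below both wild-type samples, and the lymph nodes lay close together. The log2 change was -3.05 ± 0.08, which is 8.29-fold lower (adjusted p = 6.1e-09, n = 8 and 2). The second Hoxa9 probe set, 1421579_at, read 0.47 and 0.28 in wild-type cells and between -0.12 and 0.11 in the lymph nodes. It was 1.30-fold lower (-0.38 ± 0.08, adjusted p = 0.012), and this call was lost without wild-type sample 1 (-0.28, adjusted p = 0.142). Both Hoxa9 probe sets thus moved the same way, but by unequal amounts.

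Hoxa5 and Hoxa7 are neighbours of Hoxa9 in the cluster. Hoxa5 probe set 1448926_at read 1.39 and 2.08 in wild-type cells, and between -0.22 and 0.08, with a median of -0.01, in the lymph nodes. The groups were apart by more than 1 unit on the log2 scale, although the wild-type samples also differed from each other. It was 3.41-fold lower in the lymph nodes (-1.77 ± 0.15, adjusted p = 2.7e-05). The other Hoxa5 probe set, 1443803_x_at, overlapped between groups (-0.28 ± 0.14, adjusted p = 0.208). Hoxa7 read 0.54 and 0.70 in wild-type cells and between -0.19 and 0.18 in the lymph nodes. It was 1.54-fold lower (-0.62 ± 0.11, adjusted p = 0.0037), and without wild-type sample 2 it was no longer called (-0.54, adjusted p = 0.0705).

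Hoxa10 was not called. Probe set 1431475_a_at read 0.14 and 0.33 in wild-type cells and between -0.14 and 0.11 in the lymph nodes, so the groups did not overlap (-0.26 ± 0.08, adjusted p = 0.0624). Probe set 1446408_at overlapped (0.01 ± 0.08, adjusted p = 0.931). Of the other Hoxa and Hoxb genes, 12 were measured by 18 probe sets, and 0 of the 18 were called in this comparison by limma (2 at an unadjusted p under 0.05). The HoxA difference was thus found on probe sets of Hoxa5, Hoxa7 and Hoxa9; a difference between these genes and the rest of the cluster was not tested.

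Meis1, the TALE partner of Hoxa9, was lower on 2 of its 3 probe sets. Probe set 1450992_a_at read 2.39 and 2.47 in wild-type cells and between -0.13 and 0.09 in the lymph nodes. All lymph nodes lay far below both wild-type samples, and the change was 5.43-fold (-2.44 ± 0.08, adjusted p = 2.3e-08). Probe set 1443260_at read 1.26 and 1.56 in wild-type cells and between -0.13 and 0.19 in the lymph nodes, a 2.68-fold change (-1.42 ± 0.11, adjusted p = 1.8e-05). The third, 1459423_at, overlapped (-0.13 ± 0.10, adjusted p = 0.431). Among the other TALE genes 5 of 17 probe sets were called, all lower, and they belonged to 2 genes: Pbx3, a cofactor of Hoxa9, at -2.39 ± 0.64 (adjusted p = 0.029) and Pknox1, another TALE factor, at -0.76 ± 0.14 (adjusted p = 0.0045).

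Cd34 read 2.45 and 3.24 in the 2 wild-type samples and between -0.24 and 0.08, with a median of 0.05, in the lymph nodes. The wild-type samples differed by less than the distance to any lymph node. Cd34 was 7.18-fold lower in the lymph nodes (-2.84 ± 0.17, adjusted p = 1.8e-06). Of 40 probe sets of other stem and progenitor genes, 2 were lower and 2 higher. The lower ones included Prom1, a surface glycoprotein of progenitors, at -3.72 ± 0.17 (adjusted p = 2.5e-07), and the stem-cell factor Hlf at -0.59 ± 0.09. Bmi1, a Polycomb protein, was higher (0.50 ± 0.13).

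Mn1 and Lmo2 overlapped between the groups, because the lymph nodes spread to both sides of the wild-type samples. Mn1 read -0.61 and -0.44 in wild-type cells and between -0.75 and 2.62, with a median of 0.24, in the lymph nodes (0.94 ± 0.67, adjusted p = 0.391). Lmo2 read -0.16 and -0.07 in wild-type cells and between -1.31 and 0.84, with a median of 0.01, in the lymph nodes (0.01 ± 0.44, adjusted p = 0.99). Factors that work with Lmo2 were called on 5 of 21 probe sets, 4 lower and 1 higher. Gata2 was at -1.71 ± 0.14 (adjusted p = 2.0e-05), Gata1 at -0.71 ± 0.09, the ETS factor Fli1 at -0.84 ± 0.22 and the LIM-binding cofactor Ldb1 at 0.54 ± 0.13.

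**Figure D1:**
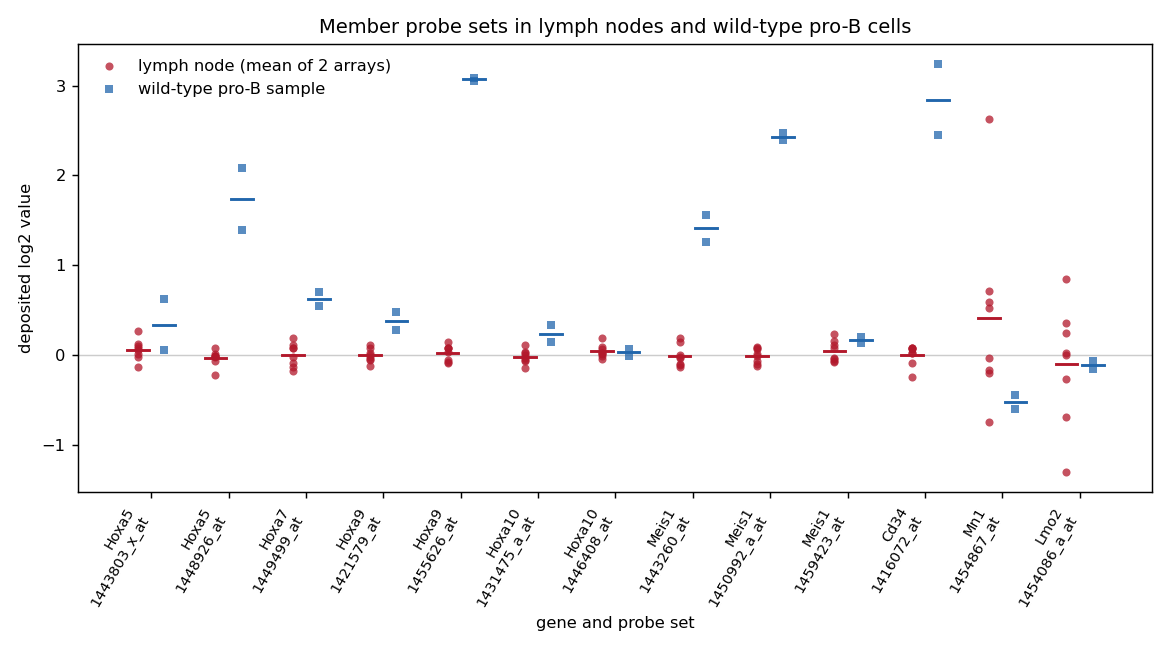
Deposited log2 values (y axis) of the 13 probe sets (x axis) in 8 lymph nodes, each the mean of 2 arrays (circles), and in 2 wild-type pro-B samples (squares), with group means as bars. The wild-type samples lie above all lymph nodes for 8 probe sets, farthest for Hoxa9 1455626_at (3.09 and 3.05 against at most 0.14), while Mn1 and Lmo2 spread over the lymph nodes.

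Genes that Hoxa9 and Meis1 are known to regulate were called on 2 of 30 probe sets, both lower and both of Eya1 (-2.81 ± 0.11 on the most variable one, adjusted p = 8.0e-08). Flt3, the receptor tyrosine kinase that is a classical target of the pair, overlapped in its spread (1.68 ± 0.92, adjusted p = 0.256). Genes of the MLL complex, which maintains HoxA expression, were called on 2 of 25 probe sets, both lower, with Men1 at -0.32 ± 0.09.

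Markers of other cell types moved in the same comparison, in which 17.4% of all probe sets were called and 7.53% were called lower. Myeloid markers were lower in the lymph nodes on 11 of 15 probe sets, with Mpo, the granule peroxidase of myeloid progenitors, at -7.21 ± 0.20 and the granule protease Prtn3 at -6.60 ± 0.21. The mean of the myeloid list was 4.23 and 4.53 in the wild-type samples and between -0.75 and 0.91 in the lymph nodes. Erythroid and megakaryocyte markers were lower on 4 of 7 (wild type 0.528 and 0.528, lymph nodes -0.06 to 0.18), stromal markers on 9 of 30 (0.51 and 0.70 against -0.07 to 0.11) and endothelial markers on 2 of 21 (-0.09 and 0.02 against -0.14 to 0.37). Of pro-B and pre-B markers 1 of 16 was lower (0.28 and 0.13 against -1.02 to 0.76), and of T-cell, NK-cell and mature B-cell markers 0 of 22, 0 of 11 and 0 of 16 were called by limma (1, 0 and 1 at an unadjusted p under 0.05). Progenitors and myeloid cells also use several of the 8 genes, and the part of these cell types in the differences of Hoxa5, Hoxa7, Hoxa9, Meis1 and Cd34 was not tested. Because the values are relative, it cannot be read whether any defining marker was at background.

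**Figure D2:**
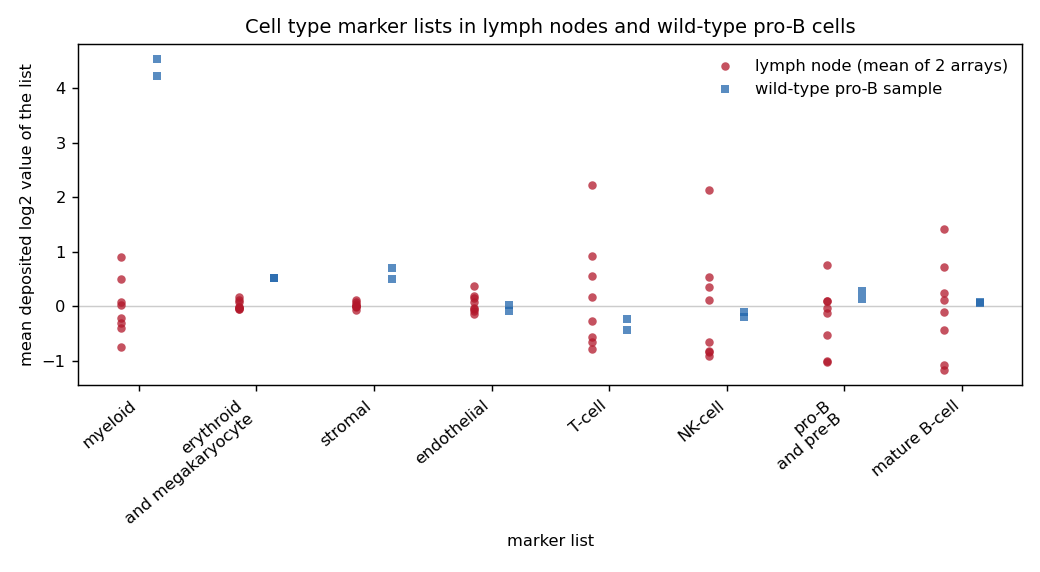
Mean deposited log2 value of each marker list (y axis) for 8 marker lists (x axis) in the 8 lymph nodes (circles, mean of 2 arrays) and the 2 wild-type pro-B samples (squares). The myeloid list separates the groups most (4.23 and 4.53 in wild type), and the T-cell and NK-cell lists are highest in a single lymph node.

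Among the 8 lymph nodes themselves, Mn1 and Lmo2 differed and the other members did not pass the test. A moderated F test of limma over the 16 arrays called 2 of the 13 probe sets, against 58.5% of all probe sets. Its error term is the scatter of duplicate arrays, possibly a technical one. The 11 other probe sets had ranges over the lymph-node means of 0.22 to 0.40, with adjusted p-values from 0.068 to 0.894.

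For Mn1 the means of the 2 arrays were 2.62 in lymph node 381, 0.71 in 279, 0.59 in 292, 0.53 in 317, -0.04 in 278, -0.17 in 383, -0.20 in 277 and -0.75 in 327. Lymph node 381 stood far above the rest, 279, 292 and 317 lay close together, as did 278, 383 and 277, and 327 was lowest. Both arrays of lymph node 381 were high, at 2.71 and 2.53, and the arrays of a lymph node differed by 0.20 on average and by at most 0.48. The range of 3.37 had an adjusted p of 1.3e-07. Without lymph node 381 the range was 1.45 and remained called (adjusted p = 0.0001).

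For Lmo2 the means were 0.84 in lymph node 381, 0.36 in 278, 0.25 in 292, 0.02 in 383, 0.00 in 317, -0.27 in 327, -0.70 in 279 and -1.31 in 277. The order had lymph node 381 at the top and 277 at the bottom, and 278 and 292 in one pair and 383 and 317 in another lay close together. The arrays of a lymph node differed by 0.05 on average and by at most 0.14. The range of 2.15 had an adjusted p of 3.8e-09, and without lymph node 277 it was 1.54 (adjusted p = 3.2e-07). Across the 8 means, which come from the same arrays, the Pearson correlation of Mn1 and Lmo2 was 0.56; lymph node 381 was highest for both, but the lowest lymph node was not the same.

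**Figure D3:**
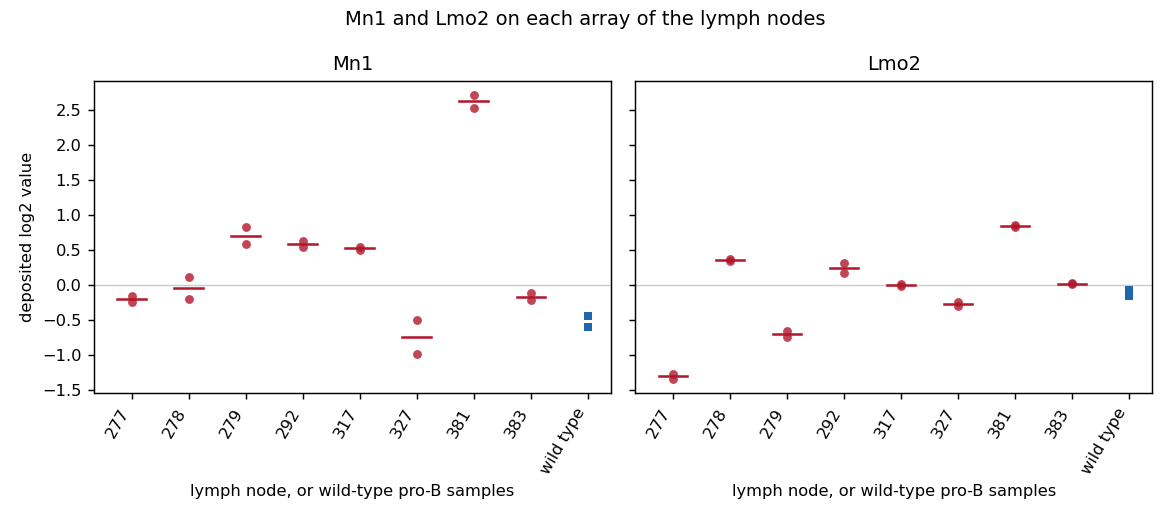
Deposited log2 values (y axis) of Mn1 and Lmo2 on each of the 2 arrays of 8 lymph nodes (circles, bar at their mean) and in 2 wild-type pro-B samples (squares). Mn1 is highest in lymph node 381 (2.71 and 2.53), and Lmo2 runs from -1.31 in 277 to 0.84 in 381.

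Cell type markers differed among the lymph nodes as well. Lymph node 381, highest for Mn1 and Lmo2, had the lowest pro-B and pre-B list mean (-1.02) and list means of 0.56 for T-cell and 0.35 for NK-cell markers. These list means were not particular to it. Lymph node 317 was nearly as low for pro-B and pre-B markers (-1.0017), with Mn1 at 0.53 and Lmo2 at 0.00. Lymph node 383 had higher T-cell (0.93) and NK-cell (0.55) list means than 381, with Mn1 at -0.17 and Lmo2 at 0.02. Lymph node 279 had the highest T-cell (2.22), NK-cell (2.13) and myeloid (0.91) list means, with Mn1 at 0.71 and Lmo2 at -0.70. The part of cell composition in the Mn1 and Lmo2 values was not tested. The genes whose pattern over the 8 lymph-node means was most like that of Mn1 were Tktl1 (Pearson r = 0.99), Nos1ap (0.96) and Apbb1ip (0.96), of which Apbb1ip was itself called between lymph nodes (adjusted p = 0.013) and Tktl1 and Nos1ap were not (adjusted p = 0.124 and 0.0871). Those most like Lmo2 were Tsc1 (0.95), Sv2a (0.95) and Tcea2 (0.94). These correlations were picked as the highest over all genes and rest on 8 means each. Members not called between lymph nodes reached values as high, such as Hoxa7 with Hcrtr2 (0.99) and Hoxa5 with Slc5a7 (0.99).

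In the Ebf1-ER course, Lmo2, Mn1 and Cd34 fell after 4-OHT was added. Hoxa5, Hoxa9 and Meis1 fell by smaller amounts, and not on all of their probe sets at each time. At 6 h 6 of the 13 probe sets were called, 1 higher and 5 lower, against 32% of all probe sets called, 17.2% higher and 14.8% lower. At 12 h 7 were called, all lower, against 36.5% called and 18% lower. At 24 h 8 were called, 2 higher and 6 lower, against 35.1% called, 19.3% higher and 15.8% lower. Between 24 h and 6 h, which do not involve the 0 h arrays, 3 were called, all lower, against 8.12% called and 3.74% lower. The 3 comparisons with 0 h share its 2 arrays, so their counts are not independent.

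Lmo2 had the largest fall at 6 h. It read 1.30 and 1.52 at 0 h, 0.18 and 0.31 at 6 h, -0.30 and -0.27 at 12 h, and -0.22 and -0.18 at 24 h. Both 0 h arrays lay above all later ones, the 6 h arrays lay between them and the 12 and 24 h arrays, and the last 2 times lay close together. The log2 changes from 0 h were -1.17 ± 0.10 at 6 h (adjusted p = 9.6e-05), -1.69 ± 0.10 at 12 h (1.3e-05) and -1.61 ± 0.10 at 24 h (2.2e-05), the last a 3.05-fold decrease. From 6 h to 24 h the change was -0.45 ± 0.10 (adjusted p = 0.038), a call that was lost without any 1 of the 4 arrays of those times (adjusted p from 0.0959 to 0.187).

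Mn1 fell at each step. It read 0.77 and 0.95 at 0 h, 0.40 and 0.34 at 6 h, -0.39 and -0.34 at 12 h, and -0.91 and -0.79 at 24 h. No arrays of different times overlapped, and the order followed the time. The changes from 0 h were -0.49 ± 0.10 (adjusted p = 0.0059), -1.22 ± 0.10 (4.4e-05) and -1.71 ± 0.10 (1.5e-05), the last a 3.26-fold decrease. The change from 6 h to 24 h was -1.22 ± 0.10 (adjusted p = 0.00038).

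Cd34 followed the same order of times with smaller steps. It read 0.30 and 0.56 at 0 h, 0.08 and 0.16 at 6 h, -0.10 and -0.08 at 12 h, and -0.58 and -0.55 at 24 h, again with no overlap between times. The change was -0.31 ± 0.10 at 6 h, which was not called (adjusted p = 0.0551), -0.52 ± 0.10 at 12 h (0.0052) and -0.99 ± 0.10 at 24 h (0.00021), a 1.99-fold decrease. From 6 h to 24 h it was -0.68 ± 0.10 (adjusted p = 0.0079), and this call was lost without 24 h array 1, 24 h array 2 or 6 h array 2 (adjusted p = 0.0635, 0.0532 and 0.0563).

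Meis1 and the Hoxa genes moved less, and not all in 1 direction. Meis1 probe set 1450992_a_at read 0.34 and 0.45 at 0 h, 0.12 and 0.00 at 6 h, -0.40 and -0.25 at 12 h, and 0.00 and -0.01 at 24 h, so that it was lowest at 12 h. Its changes from 0 h were -0.34 ± 0.10 (adjusted p = 0.031), -0.72 ± 0.10 (0.00066) and -0.40 ± 0.10 (0.014). Its other 2 probe sets were not called at any time. Hoxa5 probe set 1448926_at had the same course, at 0.42 and 0.46, then 0.11 and 0.09, then -0.20 and -0.32, then -0.09 and -0.10. Its changes were -0.34 ± 0.08 (adjusted p = 0.015), -0.70 ± 0.08 (0.00036) and -0.54 ± 0.08 (0.0016), while Hoxa5 1443803_x_at was not called at any time.

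Hoxa9 probe set 1455626_at read 0.24 and 0.33 at 0 h and between -0.16 and 0.02 on the 6 later arrays, all below 0 h. Its changes were -0.28 ± 0.09 (adjusted p = 0.045), -0.39 ± 0.09 (0.0099) and -0.32 ± 0.09 (0.025). Hoxa9 1421579_at was called only at 12 h (-0.32 ± 0.09, adjusted p = 0.027). Hoxa7 and Hoxa10 went the other way: Hoxa7 read -0.29 and -0.24 at 0 h and -0.06 or above later, with changes of 0.30 ± 0.09 at 6 h (adjusted p = 0.039) and 0.43 ± 0.09 at 24 h (0.0079). Hoxa10 1431475_a_at was at -0.42 and -0.25 at 0 h and 0.17 and 0.11 at 24 h (0.47 ± 0.12, adjusted p = 0.014). Many calls of these small Hoxa and Meis1 changes were lost on leaving out an array. The Hoxa9 1455626_at call at 6 h was lost without any 1 of its 4 arrays (changes from -0.32 to -0.24). So were the Hoxa9 1421579_at call at 12 h (-0.37 to -0.28) and the Hoxa7 call at 6 h (0.25 to 0.35). Hoxa5 1448926_at at 12 and 24 h and Meis1 1450992_a_at at 12 h kept their calls under every alternative that tested single probe sets. Their changes stayed between -0.76 and -0.64, -0.56 and -0.52, and -0.80 and -0.65. With all probe sets of a gene averaged, limma called Meis1 at no time (adjusted p = 0.759, 0.192 and 0.283 at 6, 12 and 24 h). Averaged Hoxa9 was called at 12 h (-0.36, adjusted p = 0.0053) but not at 6 or 24 h (0.0583 and 0.238). Averaged Hoxa5 was called at 12 h (-0.49, adjusted p = 0.0035) and 24 h (-0.30, 0.037) but not at 6 h (0.317).

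**Figure D4:**
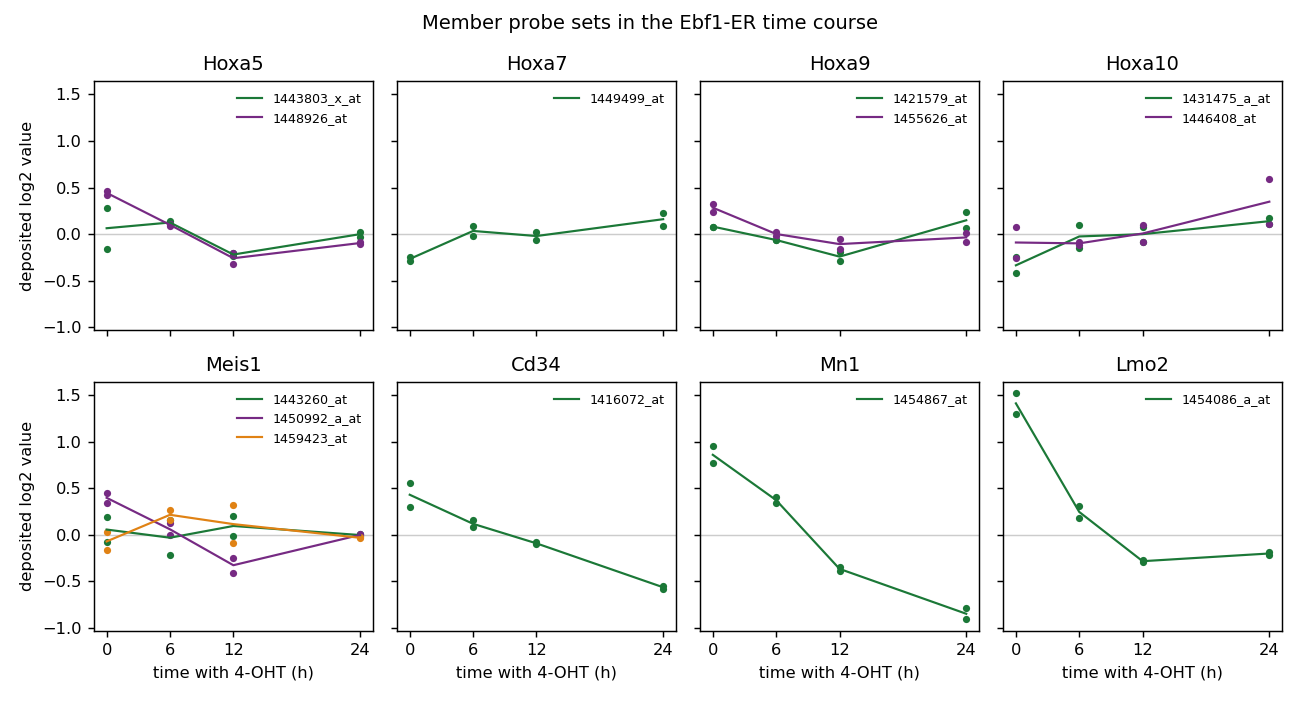
Deposited log2 values (y axis) of the members against time with 4-OHT in h (x axis), 1 panel per gene, with points for the 2 arrays of each time and lines through their means, coloured by probe set. Lmo2, Mn1 and Cd34 go down from 0 h to 24 h, and the Hoxa and Meis1 probe sets stay between -0.42 and 0.59.

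Of 40 probe sets of other stem and progenitor genes 16, from 9 of 16 genes, were called at 24 h, all lower, against 35.1% of all probe sets called and 15.8% called lower. The other 24 were not called, and the median change of the 40 was -0.32 beside 0.042 over all probe sets. Among them the cytokine receptor Kit was at -1.48 ± 0.09 and Cd93, a surface receptor of early progenitors, at -1.60 ± 0.09. Of the Lmo2 partners and stem-cell factors 11 of 21 were lower and 2 higher, with the corepressor Cbfa2t3 at -1.17 ± 0.09 and the Tal1 relative Lyl1 at -0.85 ± 0.10. Genes that Hoxa9 and Meis1 are known to regulate had 13 of 30 lower and 3 higher, with Flt3 at -1.32 ± 0.08 and Eya1 at -0.78 ± 0.11. Of 17 TALE probe sets 5 were lower and 2 higher, with Meis2 at -1.02 ± 0.22 and Pbx3 at 0.46 ± 0.14. MLL and cofactor genes had 10 of 25 higher and 7 lower, and the other Hoxa and Hoxb genes 2 of 18 higher and 1 lower.

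Cell type markers were also called along the course. At 24 h 35.1% of all probe sets were called, 19.3% higher and 15.8% lower. Stromal markers were lower at 24 h on 13 of 30 probe sets, with list means of 0.29 and 0.73 at 0 h and -0.32 and -0.08 at 24 h, and the cells had been grown on OP9 stroma. Myeloid markers were lower on 4 of 15 and higher on 2, with list means of 0.27 and 0.33 at 0 h and -0.17 and -0.11 at 24 h, and NK-cell markers were lower on 5 of 11. T-cell markers were lower on 8 of 22 and higher on 1. Endothelial markers were higher on 2 of 21 and lower on 1, and mature B-cell markers were lower on 2 of 16. Of erythroid and megakaryocyte markers 0 of 7 were called by limma (0 at an unadjusted p under 0.05). Of the pro-B and pre-B markers 3 of 16 were higher and 6 lower, and the median change of the 16 was -0.07. The surrogate light chain genes Igll1 at 3.59 ± 0.09 and Vpreb1 at 1.97 ± 0.11 were among the higher ones. At 6 h 3 of the 16 were higher and 8 lower, with Dntt at -3.02 ± 0.13 and Il7r at -1.72 ± 0.16. The part of these markers' cells, and of the 0 h arrays that stand apart, in the falls of Lmo2, Mn1 and Cd34 was not tested; between 6 h and 24 h, without the 0 h arrays, Mn1 changed by -1.22, Cd34 by -0.68 and Lmo2 by -0.45.

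In the 230238 line, Ebf1-Engrailed left most members without a call. Of the 13 probe sets 1 was called, against 11.7% of all probe sets called and 4.95% called lower. For 4 of the 13 the groups did not overlap, against 30.3% of all probe sets. At an unadjusted p under 0.05 there were 3. The called probe set was Hoxa5 1443803_x_at, which read -0.24, -0.22 and -0.14 with Ebf1-Engrailed and 0.14, 0.25 and 0.45 with the empty vector. The groups did not overlap (-0.48 ± 0.11, adjusted p = 0.028), but the other Hoxa5 probe set overlapped (0.06 ± 0.17, adjusted p = 0.875). The call was lost without Ebf1-Engrailed sample 1 or 2 or empty-vector sample 2 (adjusted p = 0.121, 0.114 and 0.0864).

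Lmo2 and Cd34 came next. Lmo2 read 0.17, 0.20 and 0.24 with Ebf1-Engrailed and -0.17, -0.18 and -0.66 with the empty vector, all higher with Ebf1-Engrailed (0.54 ± 0.14, adjusted p = 0.056). Cd34 read 0.37, 0.28 and 0.05 against -0.05, -0.12 and -0.26, again without overlap (0.38 ± 0.11, adjusted p = 0.081). Same-numbered samples of the 2 groups deviated together. With the replicate number as a block, limma called both (Cd34 adjusted p = 0.036, Lmo2 adjusted p = 0.0458). The share of all probe sets called with the block was not worked out, so these 2 calls have no background beside them. Without the block Lmo2 was called when empty-vector sample 3 was left out (0.38, adjusted p = 0.036), and Cd34 when Ebf1-Engrailed sample 3 was left out (0.47, adjusted p = 0.0306). Hoxa7, Hoxa9, Hoxa10, Meis1 and Mn1 had log2 changes between -0.11 and 0.12 on their 9 probe sets, none of them called.

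**Figure D5:**
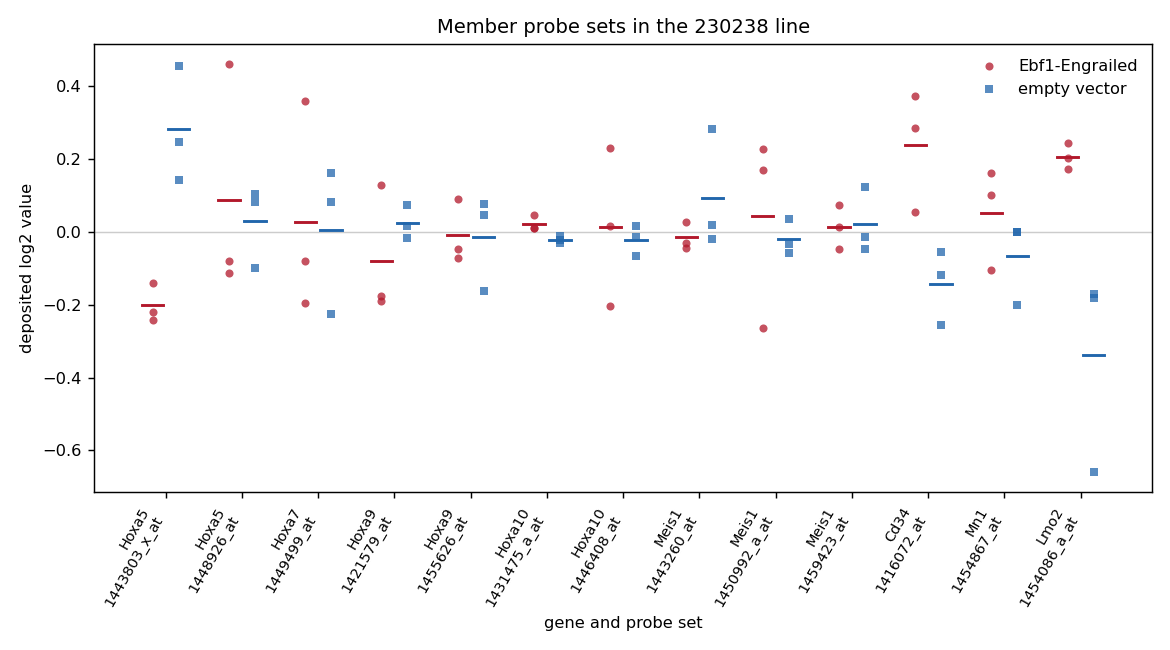
Deposited log2 values (y axis) of the 13 probe sets (x axis) in 3 samples of the 230238 line with Ebf1-Engrailed (circles) and 3 with the empty vector (squares), with group means as bars. The groups are apart for Hoxa5 1443803_x_at, Cd34, Lmo2 and, by a small distance, Hoxa10 1431475_a_at.

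Lists of genes around the members also held calls in this line, where 11.7% of all probe sets were called and 4.95% were called lower. A difference between these lists and the members was not tested. Of the Lmo2 partners and stem-cell factors 5 of 21 probe sets were lower and 1 higher, with the ETS factors Erg at -2.99 ± 0.29 (adjusted p = 0.0014) and Fli1 at -0.82 ± 0.10 and with Gata1 at 1.06 ± 0.18. Known targets of Hoxa9 and Meis1 had 7 of 30 higher and 5 lower, with a median change of 0.06. The progenitor factor Myb, at -2.42 ± 0.38, was among the lower ones. Other stem and progenitor genes had 5 of 40 higher and 1 lower, with Cd93 at 1.53 ± 0.30 and Mycn at 1.11 ± 0.09, and the other Hoxa and Hoxb genes had 0 of 18 called by limma (3 at an unadjusted p under 0.05). Myeloid markers were higher on 3 of 15 probe sets, with list means of 0.28 to 0.33 with Ebf1-Engrailed and -0.30 to -0.19 with the empty vector, and pro-B and pre-B markers were lower on 4 of 16 (-0.89 to -0.15 against 0.17 to 0.78). Mature B-cell markers were higher on 6 of 16 (0.12 to 0.35 against -0.52 to -0.15) and T-cell markers on 3 of 22 (0.20 to 0.30 against -0.52 to -0.15). Stromal and NK-cell markers were higher on 1 of 30 and 1 of 11, endothelial markers had 1 of 21 higher and 1 lower, and of erythroid and megakaryocyte markers 0 of 7 were called by limma (1 at an unadjusted p under 0.05). The part of these cell types in the Lmo2 and Cd34 values was not tested.

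Ebf1 and Pax5, the factors the series is built on, were read beside the members. Ebf1 was at -1.77 ± 0.25 with Ebf1-Engrailed (4 of its 5 probe sets called) and at -0.77 ± 0.08 at 24 h of the Ebf1-ER course, where the cells lack endogenous Ebf1. Pax5 was not called in the line (-0.42 ± 0.18), at 24 h (0.30 ± 0.13) or, on its most variable probe set, in the lymph nodes (0.40 ± 0.26).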

How the data were processed

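The authors deposited a single matrix of log2 values for 45101 probe sets. RMA is named in the submitters' processing notes, and the log base, not given in the sources used here, was read as 2. Every probe set had a median of 0 (within 1e-05) over the arrays of the pre-B line and of the Ebf1-ER course, and 24.0% had one in the lymph-node experiment, so only differences within an experiment were used. Gene names came from the platform annotation (34958 probe sets with 1 gene, 932 with several, 9211 with none); 34754 of the 34958 were found in the gene table and 204 kept the array's name. For tests, limma 3.58.1 (lmFit, eBayes; R 4.3.3, data.table, version 1.17.8) was fitted to each experiment separately, without a filter, with two-sided p-values and Benjamini-Hochberg adjustment over all 34958. Arrays of a lymph node were averaged for the comparison with wild type. The scripts were tested on simulated data, and the number of arrays limits the precision.

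The members, gene lists and tests were chosen with earlier results of these data known. Other genes were named by rule: for each gene the probe set that varied most in that experiment, at most 4 per list and comparison with the largest changes among those called, Ebf1 and Pax5 always, and the 3 genes most like a member over the lymph nodes. Flt3 in the lymph nodes was added after its values were seen. Replicate numbers in the titles paired the samples of the pre-B line (correlations of same-numbered deviations 0.26, 0.35 and 0.43). Alternatives were gene values in place of probe sets, a variance filter, array centring, other sets of arrays, a replicate block and leaving out samples.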

Additional observations from a re-analysis of the deposited data

Results flagged for a closer look

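In lymph node 381 the mean of Mn1 was 2.62, and the next highest lymph node was at 0.71, a gap of 0.569 of the whole range over the 8 lymph nodes. Among the 13 probe sets of the members it was the only lymph node standing apart.

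The same check on the 18 probe sets of other Hoxa and Hoxb genes and the 17 of TALE genes found 5 more. Lymph node 278 stood apart for 3 HoxB genes, homeodomain factors of early progenitors. Hoxb3 was at 3.36 there (next 0.18), Hoxb6 at 2.72 (next 0.08) and Hoxb5 at 1.86 (next 0.08). Lymph node 279 stood apart for Pbx3, at 2.43 (next 0.56), beside 2.43 and 2.69 in the wild-type samples. Lymph node 292 stood apart for Hoxb7 by a small amount, at 0.23 (next 0.06). For independent, normally distributed values, chance would flag about 1 in 20 of the 48 probe sets checked, and 6 were found. The 48 come from the same arrays, and 3 of the 6 were HoxB genes in lymph node 278. The 2 numbers therefore cannot decide whether there were more than by chance. Hoxb7 was not called between lymph nodes by limma's moderated F test (range 0.31, adjusted p = 0.295).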

How the results depend on the processing

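The 34 called values of single probe sets gave 329 values under the alternatives: 272 kept direction and call, 57 lost the call, and 0 changed sign. Counts of called members moved by over 1.5 times under some alternatives, and counts that moved less or stayed the same are given beside them. The share of all probe sets called was worked out only for the main fits. Whether the counts of members moved with that share was therefore not tested. With 1 fit over all groups of the series the count was 1 at 6 h against 0 h and 0 at 24 h against 6 h. That fit takes the spread from all 3 experiments. The 1 call at 6 h was Hoxa10 1431475_a_at, higher (limma adjusted p = 0.038). All 6 main calls at 6 h were lost, Lmo2 (0.0639) and Mn1 (0.704) among them. Mn1 also lost its call at 12 h (0.187) and 24 h (0.0616) against 0 h and at 24 h against 6 h (0.544). With the less variable probe sets left out it was 0 for Ebf1-Engrailed, where 6 member probe sets were left. With the replicate block it was 3 for Ebf1-Engrailed; in the Ebf1-ER course, where same-numbered samples did not deviate together (correlations -0.23 to 0.12), it was 4, 7, 9 and 3 for 6, 12 and 24 h against 0 h and 24 h against 6 h, and 2 between lymph nodes. With 1 sample left out the counts were 0 to 2 for Ebf1-Engrailed, 2 to 5, 5 to 7, 4 to 7 and 1 to 2 along the course in the same order, 6 to 8 for lymph nodes against wild type and 2 between lymph nodes. A time left with 1 array is assumed to vary like the others. The lymph-node calls of Hoxa9 1455626_at, Meis1 1450992_a_at and 1443260_at, Cd34 and Hoxa5 1448926_at were kept under every alternative run. For the other lost calls the cause was not tested.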

Other observations

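Several HoxB genes were high in a single lymph node. Of 18 probe sets of other Hoxa and Hoxb genes 7 differed between lymph nodes by limma's moderated F test (58.5% of all probe sets did), and 6 of these 7 were highest in lymph node 278. Hoxb3 probe set 1456229_at read 3.52 and 3.20 on the 2 arrays of lymph node 278 and at most 0.18 as a mean in the other 7 lymph nodes (range 3.71, adjusted p = 1.9e-08). Hoxb6 read 2.83 and 2.62 there (range 2.98, adjusted p = 7.5e-08), and Hoxb5 read 1.81 and 1.90 (range 2.04, adjusted p = 3.8e-08). The second Hoxb3 probe set was also highest in lymph node 278 but was not called (0.33, adjusted p = 0.0921), and Hoxb2, Hoxb7 and Hoxb9 were not called. Hoxb4 was called on both probe sets and was highest in lymph node 278 by small distances. Its probe set 1460379_at was at 0.48 there (next 0.30, wild type 0.46 and 0.47), and 1451761_at at 0.25 (next 0.18, wild type 0.00 and 0.65). In the same lymph node Hoxa9 1455626_at and Cd34 were also at the top of the 8, but by small distances (0.14, next 0.08, and 0.0804, next 0.076). These distances were smaller than the mean gap between the 2 arrays of a lymph node (0.225 and 0.145). Neither was called between lymph nodes by the F test (adjusted p = 0.855 and 0.200), so the ranks carry no difference. Meis1 1450992_a_at was at -0.01 in lymph node 278, between the others. Wild-type pro-B cells read 0.37 and 0.01 for Hoxb3 1456229_at.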
